A study of Mus musculus with 6 samples.

Results

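A fat pad holds nerves as well as fat cells, and RNA of both was sampled when whole inguinal subcutaneous white adipose tissue (SC-WAT) was homogenized. The levels of 7 genes of the Schwann cell and of the sympathetic nerve were followed in this tissue, out of 47069 genes counted in each mouse. The genes were taken by name, by the Ensembl identifier without its version. They are *Mbp* and *Pmp22*, which encode myelin proteins, *Sox10*, a transcription factor of glia, *Nrtn*, which encodes the neurotrophic factor neurturin, *Th* and *Dbh*, which encode enzymes of noradrenaline synthesis, and *Uchl1*, which encodes a neuronal ubiquitin hydrolase also known as PGP9.5.

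RNA-sequencing of ribosome-depleted total RNA compared 3 *Egr1*+/+ and 3 *Egr1*-/- female mice on a C57BL/6 background (the J substrain per the methods of the study) at 2 weeks of age, with 1 library per mouse and no treatment in either group. In the *Egr1*-/- mice both copies of *Egr1* were mutated in every cell, by an insertion of LacZ in the 5′ untranslated region and a frameshift ahead of the DNA-binding domain. The animals came from 4 litters, with 1 *Egr1*+/+ and 1 *Egr1*-/- mouse being littermates that the sources used here do not name. The comparison asked which genes differ in SC-WAT that lacks *Egr1*.

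Schwann cells wrap the axons of peripheral nerves. Myelinating Schwann cells build layers of compact membrane around large axons from proteins such as PMP22 and MBP, under the transcription factors SOX10 and EGR2, whereas non-myelinating Schwann cells ensheathe thin fibres such as those of sympathetic neurons. Sympathetic neurons have their cell bodies in ganglia outside the fat pad and send axons into it. They make noradrenaline from tyrosine through tyrosine hydroxylase (TH) and dopamine β-hydroxylase (DBH), and noradrenaline is the classic stimulus of thermogenesis in beige and brown fat.

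In the SC-WAT of these mice the myelin genes of the set were abundant, the glial factor and the neuronal hydrolase were low, and the genes of noradrenaline synthesis were at or near 0. Only 4 of the 7 genes had enough counts to be tested between genotypes. None of these passed an adjusted p under 0.05 in edgeR, as against 3 of 17667 tested genes (0.0170%). *Mbp* had the largest difference relative to its error, with levels 26.4% lower in *Egr1*-/- mice and every *Egr1*-/- mouse below every *Egr1*+/+ mouse, but an adjusted p of 0.315 (edgeR quasi-likelihood test). The other myelin genes of a longer list were also mostly lower in *Egr1*-/- mice, 12 of 13 in all, and so were markers of fibroblasts and macrophages.

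Counts on genes summed to between 29661984 and 42357981 per mouse, of which 50.0% to 66.3% fell on mitochondrial genes, and 3 counts in a library corresponded to between 0.0696 and 0.0999 CPM, the floor used below. CPM, the counts relative to library size, were scaled by the trimmed mean of M-values (TMM). *Egr1* itself had 353, 241 and 711 counts in *Egr1*+/+ replicates 1 to 3, against 103, 84 and 57 in *Egr1*-/- replicates 1 to 3, lower in all *Egr1*-/- mice (log2 fold change -2.19, adjusted p = 0.0878, edgeR). Markers of skeletal muscle summed to between 102 and 3320 CPM and were highest in *Egr1*+/+ replicate 2 and *Egr1*-/- replicate 3, so that counts were also made without these mice.

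The cell types were checked first by sets of defining markers. All 9 Schwann cell markers passed the filter on low counts, the lowest at a mean level per length of 0.692 RPKM (CPM divided by the exon length in kilobases). Of 9 sympathetic neuron markers 3 passed, *Slc6a2*, *Slc18a2* and *Uchl1*, while 6 did not, among them *Th*, *Dbh*, *Phox2a*, *Hand2* and *Npy*. Schwann cells were thus visible in these libraries and sympathetic neurons hardly at all.

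The genes were compared with each other per length, in RPKM averaged over the 6 mice. *Pmp22* was the highest, with a mean of 28.2 RPKM and between 19.4 and 37.9 RPKM per mouse. *Mbp* followed with 9.10 RPKM on average, between 6.97 and 11.5 RPKM, and the ranges of both genes did not overlap. *Sox10* (mean 0.692 RPKM, range 0.487 to 0.906) and *Uchl1* (mean 0.632 RPKM, range 0.298 to 1.29) did not differ beyond their spread. Their order turned when the longest transcript replaced the union of exons as the length, with 0.759 RPKM for *Sox10* and 0.876 RPKM for *Uchl1*. With that length *Mbp* was at 16.1 RPKM and *Pmp22* at 36.4 RPKM, and with mitochondrial counts left out of the totals they were at 21.2 and 65.5 RPKM, in the same order. *Nrtn* was below both in every mouse, at 0.133 RPKM on average and between 0.0587 and 0.204 RPKM. *Dbh* averaged 0.0101 RPKM and *Th* had no count. The plot of levels per length shows the same order beside other nerve genes, among which the myelin list reached the highest values.

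**Figure D1:**
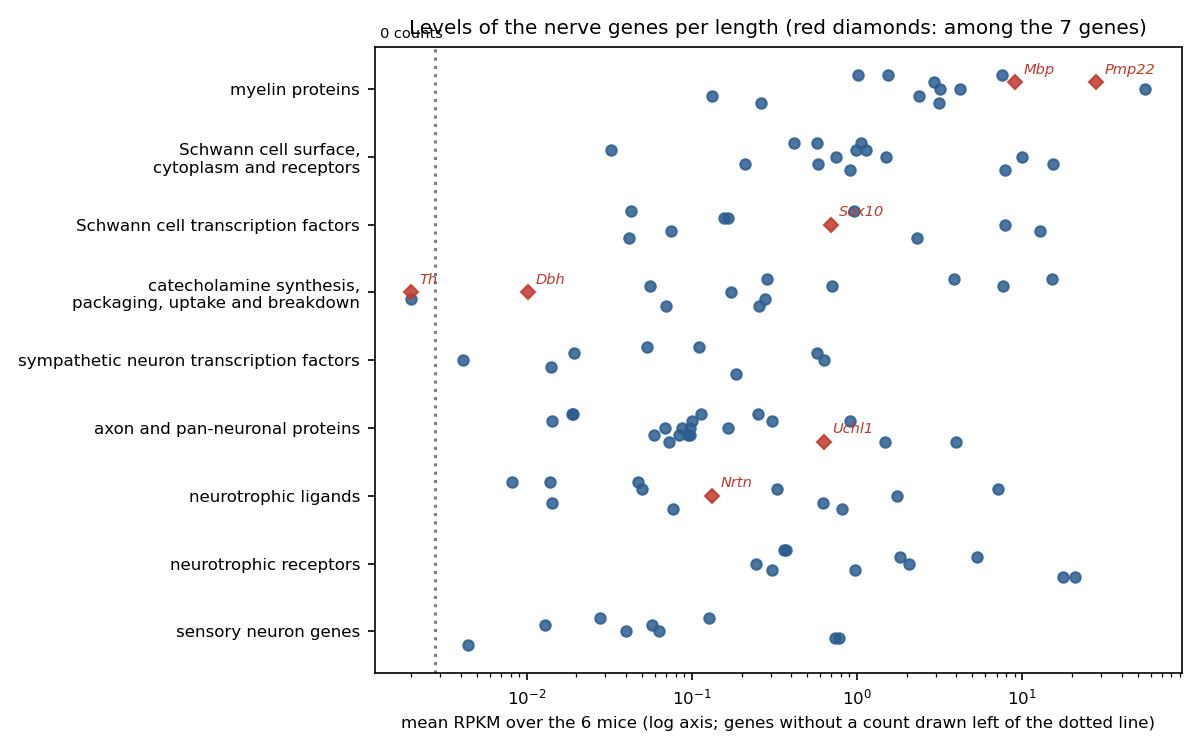
Each point is 1 gene of a nerve list, at its mean level over the 6 mice in RPKM on a log axis, with the 7 genes described here as red diamonds. *Pmp22* (28.2 RPKM) and *Mbp* (9.10 RPKM) lie far to the right of *Sox10* (0.692 RPKM), *Uchl1* (0.632 RPKM), *Nrtn* (0.133 RPKM) and *Dbh* (0.0101 RPKM), and *Th* had no counts.

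*Mbp* (ENSMUSG00000041607.16) encodes myelin basic protein, which holds the cytoplasmic faces of the myelin membrane together. It lies on chr18:82475146-82585637 of GRCm38, on the plus strand, with 16 annotated transcripts. Some of these belong to the longer Golli unit of the gene, which is also used outside glia, and counts per gene do not separate the transcripts. *Mbp* had 97.2, 94.5 and 74.9 CPM in *Egr1*+/+ replicates 1 to 3 and 74.2, 59.0 and 62.8 CPM in *Egr1*-/- replicates 1 to 3. All *Egr1*-/- mice were below all *Egr1*+/+ mice, but the lowest *Egr1*+/+ mouse and the highest *Egr1*-/- mouse were nearly level. The means were 88.9 ± 12.1 CPM (SD, n = 3) and 65.4 ± 7.92 CPM (SD, n = 3), which gave a log2 fold change of -0.44 ± 0.14 (SE) with a 95% interval from -0.77 to -0.12. The unadjusted p was 0.0126 and the adjusted p was 0.315 (edgeR). By p-value *Mbp* ranked 707 of 17667 tested genes.

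Full separation of the genotypes was common in these data. Of all tested genes, 8.10% were lower in all *Egr1*-/- mice and 16.3% did not overlap in either direction, while 5.60% were lower at an unadjusted p under 0.05. The shares in the other direction were 8.15% and 5.06%. The exact two-sided permutation test over mice gave p = 0.1 for *Mbp*, the lowest value that groups of 3 can give. With DESeq2 the adjusted p of *Mbp* was 0.108. In bulk tissue, fewer Schwann cells and less *Mbp* RNA per Schwann cell cannot be told apart.

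*Pmp22* (ENSMUSG00000018217.12) encodes peripheral myelin protein 22, a membrane protein of compact myelin whose gene dosage is altered in hereditary neuropathies, and it is also made by fibroblasts and other cells outside the nerve. It lies on chr11:63128982-63159547 of GRCm38, on the plus strand. The gene is known to have an upstream start used mainly in Schwann cells and a downstream start used widely, and RefSeq lists 4 starts. The first 2 are shown here because the counts per gene combine the RNA from both and cannot say which was used. The 250 bases before them (RefSeq, GRCm38.p6, plus strand), at chr11:63128732-63128981 for start 1 and at chr11:63131207-63131456 for start 2, have each CG dinucleotide in capitals.
Pmp22 start 1: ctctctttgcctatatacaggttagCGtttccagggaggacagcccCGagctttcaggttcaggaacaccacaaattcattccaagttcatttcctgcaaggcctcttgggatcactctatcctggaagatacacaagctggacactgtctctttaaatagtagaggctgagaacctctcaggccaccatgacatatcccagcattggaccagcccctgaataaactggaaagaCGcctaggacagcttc
Pmp22 start 2: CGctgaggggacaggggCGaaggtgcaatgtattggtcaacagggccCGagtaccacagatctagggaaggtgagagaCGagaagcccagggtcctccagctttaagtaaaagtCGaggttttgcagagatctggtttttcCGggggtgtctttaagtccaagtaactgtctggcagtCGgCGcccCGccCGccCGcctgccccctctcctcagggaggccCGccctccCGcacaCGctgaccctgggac

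The stretch before start 1 held 3 CG dinucleotides and had a GC content of 48.8%, against 14 CG dinucleotides and 61.2% before start 2. The stretches before starts 3 and 4 had a GC content of 64.8% and 73.6%. *Pmp22* had 89.3, 65.3 and 68.0 CPM in *Egr1*+/+ replicates 1 to 3 and 66.2, 45.6 and 63.3 CPM in *Egr1*-/- replicates 1 to 3. The genotypes overlapped, since *Egr1*-/- replicate 1 was above *Egr1*+/+ replicate 2, and the extremes were 1 high *Egr1*+/+ mouse and 1 low *Egr1*-/- mouse. The means were 74.2 ± 13.2 CPM (SD, n = 3) and 58.4 ± 11.2 CPM (SD, n = 3), with a log2 fold change of -0.35 ± 0.18 (SE), a 95% interval from -0.74 to 0.05 and an adjusted p of 0.540 (edgeR). The interval thus runs from 0.597-fold to 1.04-fold.

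*Sox10* (ENSMUSG00000033006.9) encodes a transcription factor that Schwann cells need at all stages and that melanocytes also express. It lies on chr15:79154908-79165240 of GRCm38, on the minus strand. *Sox10* had 95, 50 and 103 counts in *Egr1*+/+ replicates 1 to 3, or 2.77, 1.66 and 2.39 CPM. It had 88, 46 and 53 counts in *Egr1*-/- replicates 1 to 3, or 2.64, 1.48 and 1.71 CPM. Each genotype held both higher and lower mice and the ranges largely coincided. The log2 fold change was -0.22 ± 0.30 (SE), with a 95% interval from -0.91 to 0.46 and an adjusted p of 0.845 (edgeR). A difference of the size seen for *Mbp* lies inside this interval.

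**Figure D2:**
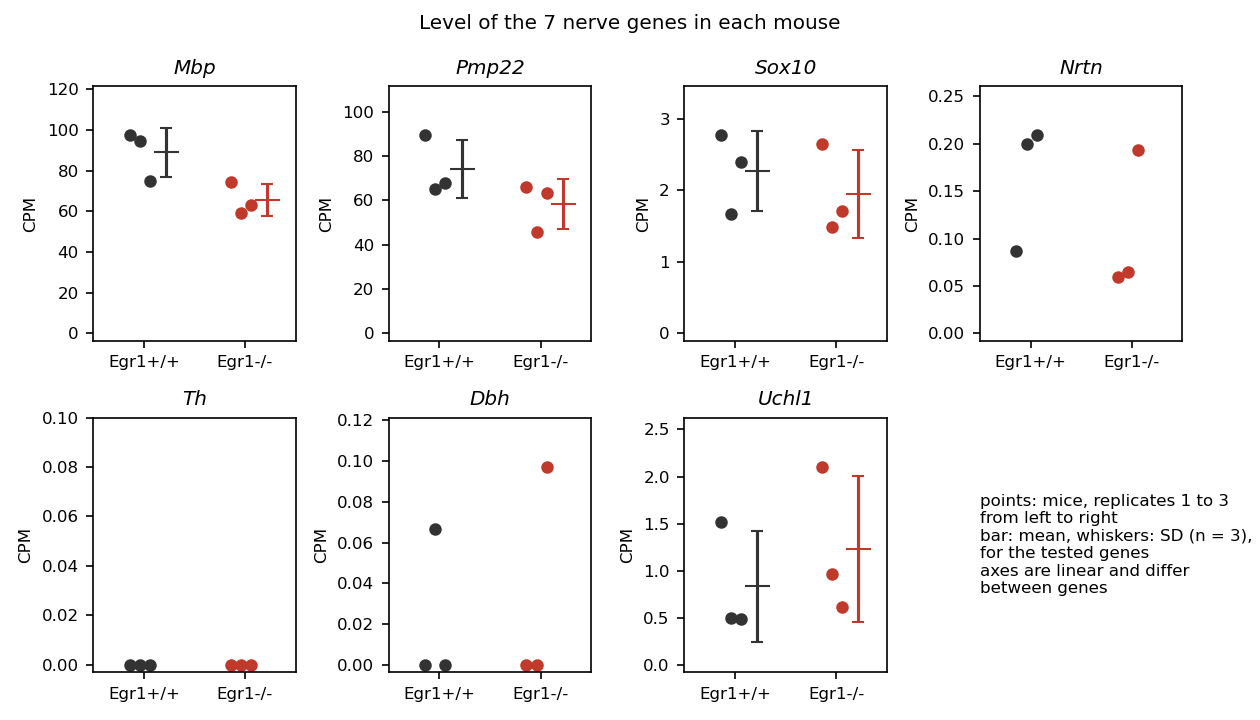
Each panel gives the level of 1 gene in CPM on a linear axis of its own, with a point per mouse and, for the 4 tested genes, the mean and SD of the 3 mice of a genotype. *Mbp* is lower in all *Egr1*-/- mice (59.0 to 74.2 CPM) than in the *Egr1*+/+ mice (74.9 to 97.2 CPM), whereas the genotypes overlap for *Pmp22*, *Sox10*, *Uchl1*, *Nrtn* and *Dbh*.

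The myelin genes were also set against *Sox10* within each mouse, a comparison chosen after their levels were known. The ratio of *Mbp* to *Sox10* in CPM was 35.1, 56.7 and 31.4 in *Egr1*+/+ replicates 1 to 3 and 28.1, 39.7 and 36.7 in *Egr1*-/- replicates 1 to 3. These ratios overlapped, with a log2 difference of -0.20 and p = 0.7 by the exact permutation test. The ratio of *Pmp22* to *Sox10* was 32.3, 39.2 and 28.5 in *Egr1*+/+ mice and 30.7 and 37.0 in *Egr1*-/- replicates 2 and 3, with a lower value in *Egr1*-/- replicate 1, so that the genotypes overlapped. The ratio of *Mbp* to *Pmp22* overlapped as well, from 1.09 to 1.45 and from 0.992 to 1.29 in the same order.

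Other myelin genes were lower more often than higher in *Egr1*-/- mice. The list held 13 genes of myelin proteins, among them *Mbp* and *Pmp22*, and all 13 passed the filter on low counts. The fold change was negative for 12 of them and positive for 1, *Cnp*, named here after its value was seen. The median log2 fold change was -0.59, or -0.63 over the 11 genes without *Mbp* and *Pmp22*, beside a median of 0.0011 and 49.9% negative values over all tested genes. In edgeR 0 of the 13 passed an adjusted p under 0.05, as against 0.0170% of all tested genes in either direction. At an unadjusted p under 0.05, 7 of 13 were lower, beside 5.60% of all tested genes, and 0 were higher, beside 5.06%. Lower in all *Egr1*-/- mice were 8 of 13, beside 8.10% of all tested genes.

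*Prx*, which encodes periaxin of the Schwann cell membrane, fell short of the threshold in both tests, with 24.8, 21.0 and 19.1 CPM in *Egr1*+/+ mice and 17.3, 10.7 and 13.8 CPM in *Egr1*-/- mice (log2 fold change -0.63, adjusted p = 0.261 in edgeR and 0.0550 in DESeq2). *Mal*, which encodes a myelin and lymphocyte protein, had means of 26.0 and 15.8 CPM (log2 fold change -0.72, adjusted p = 0.284 in edgeR and 0.0472 in DESeq2). In DESeq2, 3 of the 11 myelin genes with an adjusted p, *Mal* among them, were called lower, where 1.71% of all genes with one were.

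**Figure D3:**
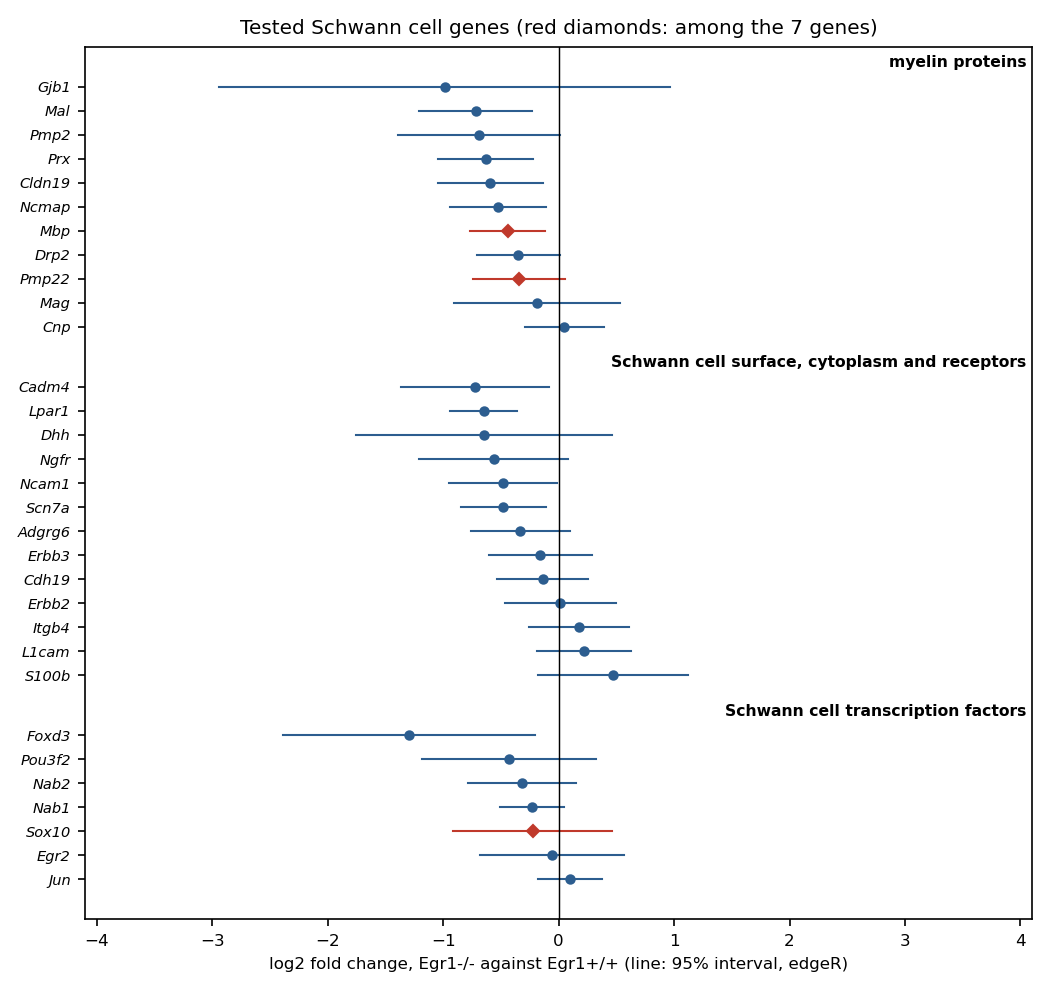
Points give the log2 fold change of *Egr1*-/- against *Egr1*+/+ mice for the tested Schwann cell genes shown, lines its 95% interval in edgeR, and red diamonds *Mbp*, *Pmp22* and *Sox10*. All myelin genes plotted except *Cnp* lie left of 0, and the median was -0.59 over the whole myelin list and -0.23 over the transcription factors.

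Genes of the Schwann cell surface and cytoplasm were spread more widely. Of 13 tested genes of 14 listed, 9 were lower and 4 were higher, and their median was -0.33 on the log2 scale. At an unadjusted p under 0.05, 4 were lower, beside 5.60% of all tested genes, and 0 were higher, beside 5.06%. Leaving out each mouse gave 1 to 5 lower, the fewest without *Egr1*-/- replicate 2. Without *Egr1*+/+ replicate 1, 2 were lower and 1 was higher. *Lpar1*, a receptor for lysophosphatidic acid that fibroblasts also carry, had means of 41.0 and 26.2 CPM (log2 fold change -0.65, adjusted p = 0.160 in edgeR and 0.00294 in DESeq2). *Scn7a*, a sodium channel gene of non-myelinating glia, had means of 131 and 94.2 CPM with an adjusted p of 0.332 in edgeR. Differences were smaller for *Erbb3* and *Cdh19*, both among the defining Schwann cell markers. Their log2 fold changes were -0.16 and -0.14, with adjusted p-values of 0.830 and 0.836 (edgeR). *S100b*, a calcium-binding protein of Schwann cells that adipocytes also contain, went the other way, with 12.4 ± 5.88 CPM (SD, n = 3) in *Egr1*+/+ mice, 17.2 ± 2.97 CPM (SD, n = 3) in *Egr1*-/- mice and an adjusted p of 0.617 in edgeR.

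Of 10 transcription factors and cofactors of the Schwann cell lineage, *Sox10* among them, 7 were tested, 6 being lower and 1 higher, and their median was -0.23 on the log2 scale. *Foxd3*, a factor of neural crest and early glia, had the largest difference (log2 fold change -1.29, adjusted p = 0.378, edgeR) at a mean of 0.551 CPM in *Egr1*+/+ mice. *Nab1* encodes a corepressor that binds EGR proteins and had a log2 fold change of -0.23 with an adjusted p of 0.566 (edgeR). *Jun*, which drives the repair state of Schwann cells and is expressed in most tissues, had a log2 fold change of 0.10. *Egr2*, the family member that directs myelination, is added here after its values were seen. It had 3.34 ± 1.08 CPM (SD, n = 3) and 3.22 ± 0.542 CPM (SD, n = 3), which gave a log2 fold change of -0.06 with an adjusted p of 0.962 (edgeR).

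Neurturin is a ligand of the GDNF family that signals through the receptor RET and its coreceptor GFRα2. *Nrtn* (ENSMUSG00000039481.5) lies on chr17:56751325-56757530 of GRCm38, on the minus strand, with a single annotated transcript. It had 3, 6 and 9 counts in *Egr1*+/+ replicates 1 to 3 and 2, 2 and 6 counts in *Egr1*-/- replicates 1 to 3, too few for the filter on low counts. All mice had some counts and the genotypes overlapped. Pooled over mice this was 0.167 CPM (95% Poisson interval 0.0992 to 0.265) in *Egr1*+/+ mice and 0.105 CPM (0.0504 to 0.193) in *Egr1*-/- mice. These intervals overlap, but they cover counting error only and are not a test of the difference. Fitted without the filter, *Nrtn* had a log2 fold change of -0.61 ± 1.04 (SE) with an unadjusted p of 0.556 (edgeR).

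The receptor genes that neurturin uses were more abundant per length, at means of 1.82 RPKM for *Gfra2* and 0.308 RPKM for *Ret*. *Gfra2* had means of 7.42 ± 1.86 CPM (SD, n = 3) and 5.46 ± 0.600 CPM (SD, n = 3), with a log2 fold change of -0.44 and an adjusted p of 0.485 (edgeR). All 10 listed neurotrophic receptor genes were tested, of which 7 were lower and 3 higher, and their median was -0.09 on the log2 scale. *Ntrk3*, which encodes the receptor of neurotrophin-3, stood apart with means of 47.0 and 77.1 CPM (log2 fold change 0.71, adjusted p = 0.224 in edgeR and 0.00852 in DESeq2). *Nrp1* and *Sort1*, the most abundant of the list and widely expressed, had log2 fold changes of 0.09 and -0.10.

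Only 5 of 12 listed neurotrophic and axon guidance ligands passed the filter, 3 of them lower and 2 higher. The higher ones were *Nrg4*, which encodes neuregulin 4, a factor secreted by brown and beige fat, and *Clstn3*, which encodes calsyntenin-3. *Nrg4* had 40.5, 34.9 and 33.6 CPM in *Egr1*+/+ mice and 50.5, 49.7 and 52.9 CPM in *Egr1*-/- mice. Every *Egr1*-/- mouse was higher (log2 fold change 0.49, adjusted p = 0.198 in edgeR and 0.0213 in DESeq2). *Clstn3* had means of 5.88 and 11.4 CPM (log2 fold change 0.95, adjusted p = 0.260 in edgeR and 0.0251 in DESeq2). *Clstn3* also gives rise to a fat-specific transcript that the counts per gene do not separate. Of 5 markers of beige adipocytes, 5 were higher in all *Egr1*-/- mice, beside 8.15% of all tested genes. The study had reported these markers as raised in the same data, so that their direction was known beforehand. They summed to 488 to 637 CPM in *Egr1*+/+ mice and 880 to 1476 CPM in *Egr1*-/- mice, and their part in the values of *Nrg4* and *Clstn3* was not tested.

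Tyrosine hydroxylase carries out the rate-limiting step of noradrenaline synthesis. *Th* (ENSMUSG00000000214.10, chr7:142892752-142931128 of GRCm38, minus strand) had 0 counts in all 6 mice. Over all mice this allows a level of up to 0.0148 CPM, the value of 3 counts. The promoter of *Th* is shown because it was the only one among the 5 of the 7 genes found in the promoter table to hold the EGR-family motif GCGNGGGCG, searched on both strands in the 250 bases before the start. *Mbp* and *Sox10* were not in the table. The match begins 139 bases before the start and lies on the strand opposite to the gene, in chr7:142900106-142900154 (RefSeq, GRCm38.p6, minus strand), with the motif in capitals.
Th: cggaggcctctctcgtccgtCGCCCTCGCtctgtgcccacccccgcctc

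Of 32851 promoters in that table, 1543 (4.70%) held this motif, and a match of letters does not show binding. With 0 counts in both genotypes, no comparison could be made for *Th*.

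Dopamine β-hydroxylase makes noradrenaline from dopamine in the synaptic vesicle. *Dbh* (ENSMUSG00000000889.8, chr2:27165233-27183200 of GRCm38, plus strand) had 0, 2 and 0 counts in *Egr1*+/+ replicates 1 to 3 and 0, 0 and 3 counts in *Egr1*-/- replicates 1 to 3. The only mice with counts were the 2 with the most skeletal muscle RNA, 1 of each genotype. All values were at or below the floor of 3 counts, and no fold change is given.

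The other genes of the noradrenergic neuron were low as well. Of 13 listed genes for synthesis, packaging, uptake and breakdown of catecholamines, *Th* and *Dbh* included, 9 passed the filter. Of these 5 were lower and 4 higher, and their median was -0.14 on the log2 scale. The sign of this median turned with limma-voom (0.037), without a filter (0.053), without *Egr1*+/+ replicate 2 (0.018) and without *Egr1*-/- replicate 3 (0.046). *Pnmt*, which encodes the enzyme that makes adrenaline, had 0 counts in all mice, as *Th* did. *Slc18a2*, the vesicular monoamine transporter, had 1.77 ± 0.572 CPM (SD, n = 3) in *Egr1*+/+ mice and 1.23 ± 0.598 CPM (SD, n = 3) in *Egr1*-/- mice, with an adjusted p of 0.713 (edgeR).

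Enzymes of catecholamine breakdown, which many cells contain, were higher per length than those of synthesis, with means of 3.87 and 7.66 RPKM for *Maoa* and *Maob* against 0.279 RPKM for *Ddc* and 0.254 RPKM for *Gch1*. *Maoa*, which encodes monoamine oxidase A, had 18.0, 19.8 and 18.9 CPM in *Egr1*+/+ mice and 15.4, 11.9 and 12.8 CPM in *Egr1*-/- mice. All *Egr1*-/- mice were lower (log2 fold change -0.50, adjusted p = 0.227, edgeR). *Maob* had a log2 fold change of 0.10. Of 8 transcription factors of sympathetic neurons, 3 passed the filter, namely *Gata2*, *Gata3* and *Insm1*, with log2 fold changes of -0.05, 0.55 and 0.17. The defining factors *Phox2a* and *Hand2* did not pass.

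*Uchl1* (ENSMUSG00000029223.12) encodes a protein that is abundant in neurons of all kinds and is used to stain nerve fibres. It lies on chr5:66676091-66687234 of GRCm38, on the plus strand, and its exons share 295 bases with those of *Uchl1os*, an antisense gene on the opposite strand. The strand setting of the counting was not given in the sources used here. *Uchl1* had 52, 15 and 21 counts in *Egr1*+/+ replicates 1 to 3, or 1.51, 0.499 and 0.487 CPM. It had 70, 30 and 19 counts in *Egr1*-/- replicates 1 to 3, or 2.10, 0.968 and 0.614 CPM. In each genotype replicate 1 stood above the other 2 mice, and the genotypes overlapped.

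The means of *Uchl1* were 0.833 ± 0.589 CPM (SD, n = 3) and 1.23 ± 0.777 CPM (SD, n = 3). The log2 fold change was 0.56 ± 0.58 (SE), with a 95% interval from -0.75 to 1.88 and an adjusted p of 0.791 (edgeR). Its direction rested on single mice. It was -0.070 without *Egr1*-/- replicate 1 and 1.29 without *Egr1*+/+ replicate 1.

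Axon and pan-neuronal genes gave 12 tested of 20 listed, *Uchl1* among them, with 8 lower, 4 higher and a median of -0.32 on the log2 scale. This median was -0.040 without *Egr1*-/- replicate 3 and -0.011 without both muscle-rich mice. *Gap43*, which encodes a growth-associated protein of axons and Schwann cells, had 11.6, 6.46 and 7.49 CPM in *Egr1*+/+ mice and 4.83, 3.23 and 2.59 CPM in *Egr1*-/- mice. All *Egr1*-/- mice were lower (log2 fold change -1.26, adjusted p = 0.198 in edgeR and 0.00232 in DESeq2). Among genes of sensory neurons 3 of 9 were tested and all 3 were lower, with a median of -0.35, including *Piezo2* (log2 fold change -0.35) and *Trpv1* (log2 fold change -0.33), with adjusted p-values of 0.453 and 0.655 (edgeR).

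**Figure D4:**
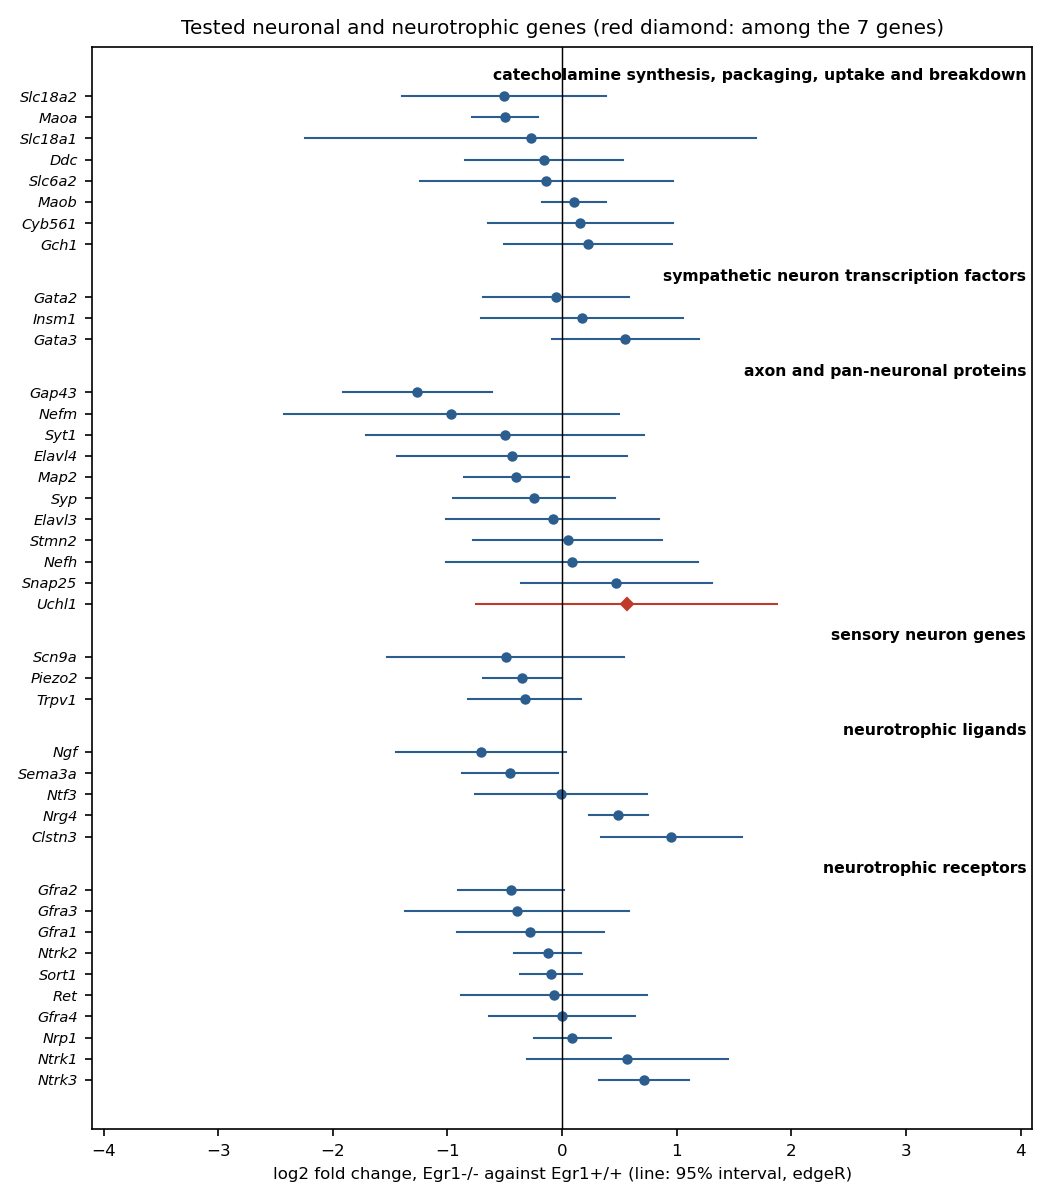
Points give the log2 fold change of *Egr1*-/- against *Egr1*+/+ mice for the tested neuronal and neurotrophic genes shown, lines its 95% interval in edgeR, and the red diamond *Uchl1*. Most intervals include 0, *Gap43* lies lowest (-1.26) and *Clstn3* highest (0.95), and *Uchl1* (0.56) has an interval from -0.75 to 1.88.

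Over all lists, 102 nerve genes other than the 7 were counted, of which 71 were tested. Of these 51 were lower and 20 higher in *Egr1*-/- mice. At an unadjusted p under 0.05 there were 19, with 16 lower and 3 higher, beside 10.7% of all tested genes. In edgeR 0 passed an adjusted p under 0.05, the lowest being 0.160. In DESeq2, 8 of the 53 genes with an adjusted p were called, beside 2.63% of all genes with one. By that test 5 fell, among them *Mal*, *Lpar1* and *Gap43*, and 3 rose, *Nrg4*, *Clstn3* and *Ntrk3*.

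Markers of other cells that can contain RNA of the 7 genes were summed per mouse. Markers of fibroblasts and adipose progenitors were lower in all *Egr1*-/- mice for 8 of 8 genes, beside 8.10% of all tested genes. Among them *Col1a1*, *Col1a2* and *Dcn* had been reported as lower by the study from the same data. The sums were 5528 to 6478 CPM in *Egr1*+/+ mice and 3301 to 4539 CPM in *Egr1*-/- mice. The fold change was negative for 5 of 5 macrophage markers, with sums of 228 to 321 CPM and 160 to 220 CPM. Markers of adipocytes summed to between 5489 and 5924 CPM and between 4449 and 5370 CPM, with 4 of 6 genes lower and 2 higher. Only 1 of these 6 was lower in all *Egr1*-/- mice and 1 was higher in all. Most of the adipocyte sum was *Fabp4*, whose own levels overlapped between genotypes (3628.5 to 4199.6 CPM and 2980.5 to 3686 CPM). The sums of all 3 lists were thus lower in every *Egr1*-/- mouse, as was that of the myelin list, with 399 to 535 CPM and 264 to 348 CPM. Markers of melanocytes, cells that share *Sox10*, also had a lower sum in every *Egr1*-/- mouse, but most of it was *Mitf*, which other cells express too, and without *Mitf* the sums overlapped, with 0.902 to 8.76 CPM and 0.873 to 4.53 CPM. Their part in the lower *Mbp* and *Pmp22* values was not tested. Markers of the mammary epithelium (4.16 to 16.9 CPM and 8.54 to 13.6 CPM) and of skeletal muscle (206 to 3320 CPM and 102 to 2742 CPM) overlapped between the genotypes. The sums for endothelium (359 to 454 CPM and 325 to 487 CPM) and lymphocytes (99.8 to 115 CPM and 78.0 to 211 CPM) overlapped as well. The fold change was positive for 8 of 8 lymphocyte markers.

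Without the 2 muscle-rich mice, *Mbp* had a log2 fold change of -0.37 (unadjusted p = 0.0788, edgeR) and *Pmp22* one of -0.49 (unadjusted p = 0.0501, edgeR). The myelin list then had 11 of 12 tested genes lower and a median of -0.61. At an unadjusted p under 0.05, 6 of the 12 were lower and 0 higher (edgeR). Of all genes tested without these mice, 1568 of 18100 had an unadjusted p under 0.05 in either direction (edgeR).

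The pattern over the 6 mice is given as a description, since all mice share the genotype contrast and the scaling of their libraries. *Mbp* and *Pmp22* had a Pearson correlation of log2 CPM of 0.789, *Pmp22* and *Sox10* of 0.785, *Mbp* and *Sox10* of 0.498, and *Mbp* and *Uchl1* of 0.0730. Among 9369 protein-coding genes with a mean of at least 5 CPM, those most like *Mbp* were *Mfsd6* (0.992), *Igfbp5* (0.985) and *Synpo* (0.983). Those most like *Pmp22* were *Hba-a2* (0.993), *Alg14* (0.991) and *Pop4* (0.989). *Sox10* came closest to *Btbd3* (0.992), *Trim44* (0.982) and *Disp1* (0.980), and *Uchl1* to *Lrrc32* (0.986), *Mrps15* (0.977) and *Ttc28* (0.966). These are the highest of 9369 correlations over only 6 mice, and extremes picked in this way do not show that genes are regulated together.

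**Figure D5:**
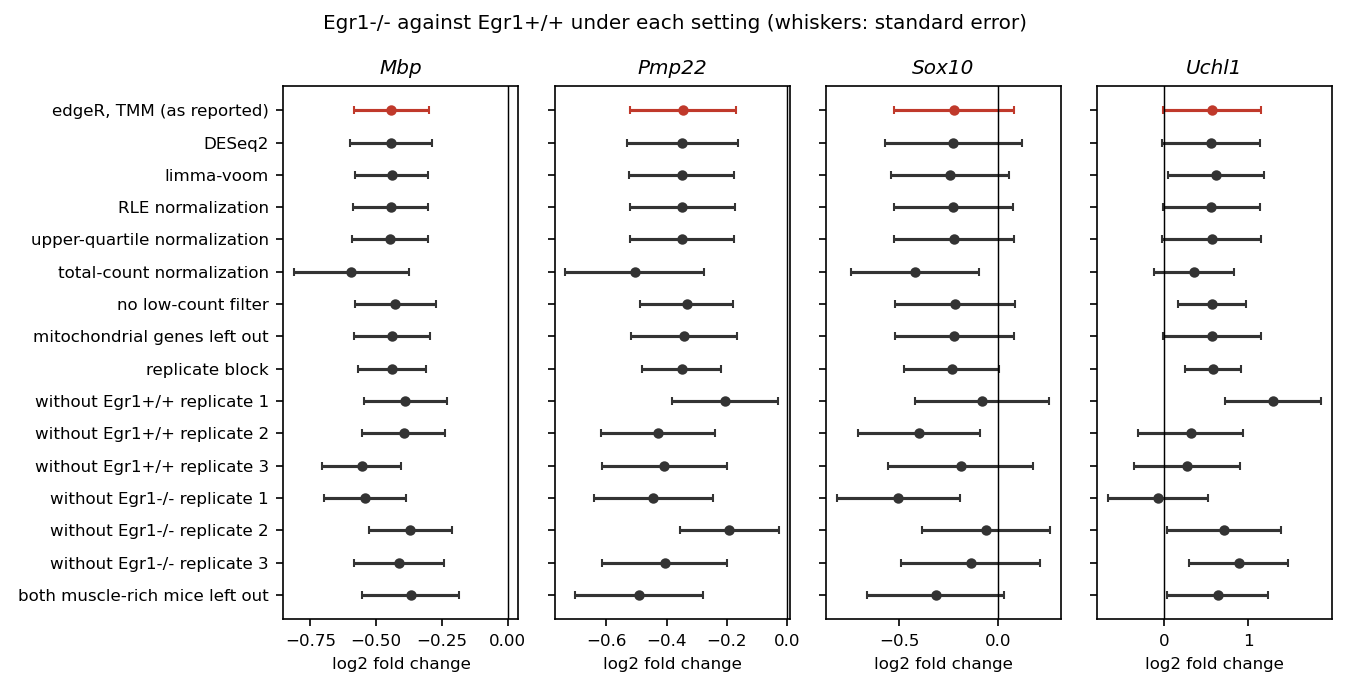
Points give the log2 fold change of *Egr1*-/- against *Egr1*+/+ mice for the 4 tested genes under each way of processing, whiskers its standard error, and red the values reported. *Mbp* stays between -0.59 and -0.37 and *Pmp22* between -0.51 and -0.19, *Sox10* between -0.51 and -0.06, while *Uchl1* runs from -0.070 to 1.29.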

How the data were processed

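Per the labels and the methods of the study, RNA from inguinal fat pads was depleted of ribosomal RNA and made into strand-specific libraries. The authors mapped reads to GRCm38 with TopHat and Bowtie, counted them on GENCODE M8 genes with featureCounts and deposited raw counts per gene. Strand and multimapping settings are not given in the sources used here, and read layout differs between the labels and the methods.

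Genotypes came from the sample labels. Identifiers were matched to GENCODE M21, which named 46574 of 47069. Counts were tested in R 4.3.3 with edgeR 4.0.16 (TMM, filterByExpr, quasi-likelihood test, Benjamini-Hochberg adjustment over 17667 genes, threshold 0.05), with genotype as the only term. *Nrtn*, *Th* and *Dbh* did not pass the filter. RPKM used the union of exons. Log2 CPM used a prior count of 2. Exact permutation tests used all 20 assignments of mice. DESeq2 1.42.0, limma 3.58.1, other scalings, no filter, no mitochondrial genes, a replicate block and leaving out each mouse were alternatives. On simulated data for this comparison (17667 genes, 200 changed), edgeR recovered 58.0% of genes changed by 1 and 96.8% of those changed by 2 on the log2 scale. The changed genes were drawn only from genes above a set mean count, so these shares do not cover genes with few counts, such as *Uchl1*. In the real data *Egr1* itself, at a log2 fold change of -2.19, was not called (adjusted p = 0.0878, edgeR). The spread within genotypes exceeded counting noise for every pair of mice, so no library was counted as a repeat of another. P-values measure the spread between mice.

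The 7 genes and the lists were chosen with earlier results of these data known. Beyond the 7 genes and *Egr1*, named genes were those past the threshold, the 2 lowest p-values and the 2 highest levels of each list, and genes with 0 counts. *Egr2*, *Cnp*, *Ret*, *Ddc*, *Gch1* and the cell type markers outside this rule were named after their values were seen. Some genes of the lists are counted but not reported here by name. Likeness used the 3 genes with the highest correlation.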

Additional observations from a re-analysis of the deposited data

How the results depend on the processing

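None of the 4 tested genes was called under any alternative. *Mbp*, *Pmp22* and *Sox10* kept a negative fold change in all 15. *Uchl1* was positive except without *Egr1*-/- replicate 1, where it was -0.070. Leaving out each mouse gave -0.55 to -0.37 for *Mbp* (adjusted p of 0.195 to 0.768 and unadjusted p of 0.00573 to 0.049992, edgeR), -0.44 to -0.19 for *Pmp22*, -0.51 to -0.06 for *Sox10* and -0.070 to 1.29 for *Uchl1*. The myelin median ran from -0.76 to -0.41, with 11 to 13 genes lower.

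The number of genes called among all tested was 3 with edgeR as used here and 366 with DESeq2, the tool of the study. It was 1 with limma-voom, 0 with upper-quartile scaling, 79 with total counts and 552 without a filter. It was 0 without both muscle-rich mice (chosen after seeing the data) and 0 to 59 without 1 mouse, the 59 being without *Egr1*-/- replicate 1. Without a filter, 38261 genes were tested. Deviations of same-numbered mice correlated at -0.0888, 0.106 and -0.126, which cannot show whether such mice share a litter or a preparation. With the replicate block 0 genes were called, and *Mbp* had a log2 fold change of -0.44 with an adjusted p of 0.329 (edgeR). *Pmp22* then had -0.35 ± 0.13 (SE, unadjusted p = 0.0316, adjusted p = 0.411, edgeR) and *Uchl1* 0.58 ± 0.33 (SE, adjusted p = 0.598, edgeR). Of 13 myelin genes, 9 were then lower and 0 higher at an unadjusted p under 0.05, beside 1909 of 17667 genes in either direction.

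Total-count scaling moved the median of all genes by -0.15, and gave medians of -0.32 for catecholamine genes, -0.23 for neurotrophic receptors, -0.49 for Schwann cell surface genes and -0.42 for Schwann cell transcription factors. Without a filter the catecholamine median was 0.053. Without both muscle-rich mice the medians were -0.011 for axon genes, -0.12 for Schwann cell surface genes and -0.062 for sensory genes. Without 1 mouse, medians ran from -0.37 to -0.040 for axon genes, from -0.23 to 0.046 for catecholamine genes, from -0.19 to 0.21 for neurotrophic ligands and from -0.43 to -0.12 for Schwann cell surface genes. The -0.040 and 0.046 came without *Egr1*-/- replicate 3, and the 0.21 and -0.12 without *Egr1*+/+ replicate 2. Apart from fewer mice, the cause was not tested. Depth limits *Nrtn*, *Dbh* and *Th*, which had 28, 5 and 0 counts over all mice.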
